A study of Mus musculus with 4 samples.

Results

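The proteasome genes described here are those whose symbol in the platform annotation starts with Psma, Psmb, Psmc, Psmd or Psme followed by a digit. They numbered 43 of the 12393 genes that the array measured through a probe set of their own. Where a gene had several probe sets, the one with the highest mean over the 4 arrays stands for it. Of the 43, 41 encode proteasome subunits, assembly chaperones or activators. The other 2, Psmc3ip and Psme3ip1, carry a matching symbol but encode partner proteins, the first of them a meiotic recombination factor. Psme2, an activator gene, was left out by this rule because its probe set is annotated to a second gene as well, and the thymus-specific Psmb11 was not analysed here.

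Splenic CD8 T cells were taken from female C57BL/6 mice of 8 to 12 weeks, 24 h after TCDD at 10 µg/kg, or its solvent DMSO, had been injected into the peritoneum. TCDD is a dioxin that binds the aryl hydrocarbon receptor, AHR. No mutant allele is named for either group. The cells of 4 mice per group were pooled and sorted to a purity above 99%, and 2 arrays were made for each group. Whether both arrays of a group come from separate pools is not stated in the labels, so the p-values rest on a spread between arrays that may be technical.

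The proteasome is the protease that degrades proteins tagged with ubiquitin. Its core particle stacks outer rings of alpha subunits on inner rings of beta subunits, and only 3 kinds of beta subunit cut peptide bonds. A regulatory particle caps the core. It consists of a base, with a ring of ATPases that unfolds substrates, and a lid that removes ubiquitin. Lymphocytes express a second set of catalytic beta subunits, inducible by interferon gamma, that replaces the constitutive set during assembly and forms the immunoproteasome, which favours peptides suited to MHC class I.

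Array medians lay between 5.97 and 6.03 on the log2 scale. Pearson correlations between arrays over all probe sets were highest for TCDD replicate 1 with DMSO replicate 1 (0.9932) and lowest for TCDD replicate 1 with DMSO replicate 2 (0.9806). The AHR target gene Cyp1a1 measured 6.13 and 6.25 after TCDD and 6.33 and 6.15 after DMSO, and the groups overlapped. Markers of CD8 T cells were well above the median level, with Cd3d between 9.83 and 10.37 and Cd8a between 8.17 and 9.46. In DMSO replicate 2 the 5 measured of 5 listed neutrophil markers had a mean level of 7.32, against 5.74 in DMSO replicate 1 and 5.86 and 6.15 in the TCDD arrays. S100a8 was at 8.67 there against 5.45 in DMSO replicate 1, and S100a9 at 7.80 against 4.61. Camp, Ltf and Ngp were less far apart, at 6.52, 6.74 and 6.89 against 6.25, 6.19 and 6.21. DMSO replicate 2 also had the lowest mean of the 7 measured of 8 listed B cell markers, 7.18 against 8.17 in DMSO replicate 1 and 8.21 and 7.90 in the TCDD arrays. That low mean came from the 4 MHC class II pathway genes on the list, such as H2-Aa at 9.51 against 10.94 in DMSO replicate 1, while Cd79b was at 6.41 against 6.30 and Ms4a1 at 5.83 against 5.81. The mean of the 4 measured of 5 listed dendritic cell markers was also lowest in DMSO replicate 2, at 6.03 against 6.74 in DMSO replicate 1 and 6.89 and 6.56 in the TCDD arrays. Irf8 was at 5.76 against 8.02 in DMSO replicate 1, and Flt3 at 6.24 against 6.81. Itgax was at 6.62 against 6.67, and Xcr1 at 5.50 against 5.44. Cd79a and Ms4a1 were below 6.01, the median level of all probe sets, in all 4 arrays. The other 5 of the 7 measured B cell markers had a mean above it, with H2-Aa between 9.51 and 11.30 and Cd79b between 6.22 and 7.09. Of 5 monocyte and macrophage markers 4 also had a mean above it, with Csf1r between 7.35 and 8.72, while Itgam lay between 4.03 and 4.22.

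No proteasome gene passed the test for a difference between TCDD and DMSO. The limma fit over 22626 probe sets called 0 (percent called 0) at an adjusted p under 0.05, and so 0 of the 43 members. At an unadjusted p under 0.05 it gave 439 probe sets, 1.94% of all, and 1 proteasome gene, Psmd6, higher after TCDD. Counting 1 probe set per gene, the same rule gave 0.823% of all genes as higher and 1.28% as lower.

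Both TCDD arrays exceeded both DMSO arrays for 6 members, or 14%, against 12.9% of all genes. Both lay below for 8 members, or 18.6%, against 12% of all genes. The groups overlapped for the other 29 members. All differences subtract DMSO from TCDD on the log2 scale, where 0.66, for example, is a 1.58-fold ratio. The median difference over the 43 was −0.035, beside 0.01 over all genes, with 20 positive and 23 negative. The median size of a member's difference was 0.155, against 0.09 over all genes. The 2 TCDD arrays were a median of 0.22 apart over the members and the 2 DMSO arrays 0.21, against 0.17 and 0.13 over all genes. TCDD replicate 1 held the lowest value for 20 of the 43 members (46.5%, against 32.3% of all genes), and TCDD replicate 2 held the highest for 19 (44.2%, against 37.9%).

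**Figure D1:**
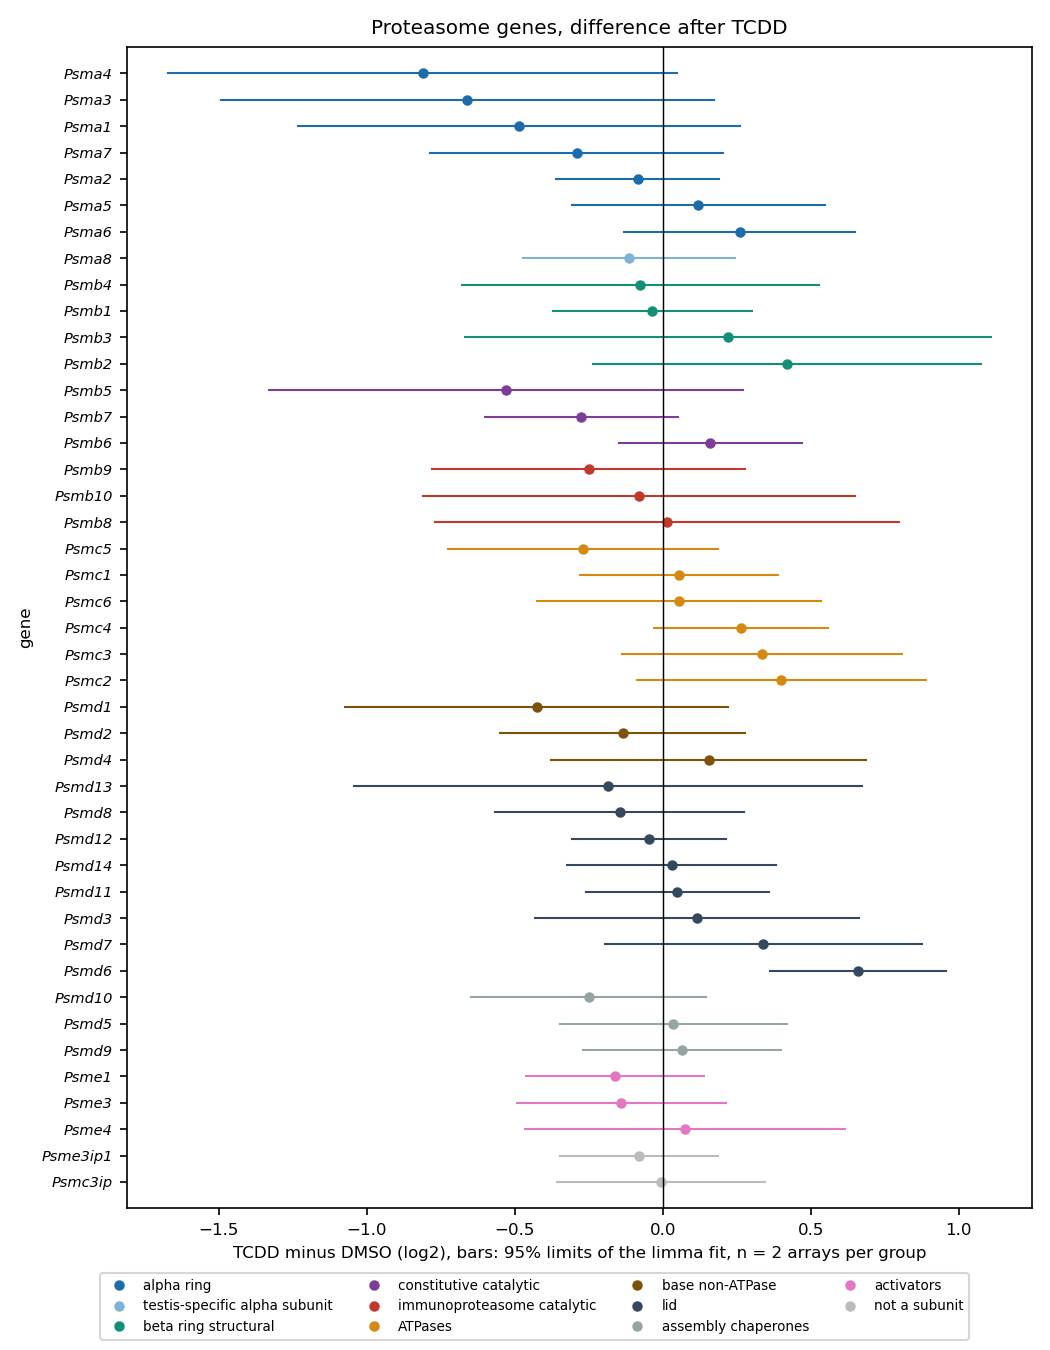
Difference between TCDD and DMSO for each of the 43 proteasome genes (x axis, log2), with 95% limits of the limma fit on 2 arrays per group, coloured by subunit class. The limits exclude 0 for Psmd6 alone, at 0.66, and the alpha ring holds the lowest value, −0.81 for Psma4.

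The 3 immunoproteasome catalytic subunits were all lowest in TCDD replicate 1, where 32.3% of all genes were. For none did the TCDD arrays separate from the DMSO arrays, and the groups overlapped for 9307 of all 12393 genes as well. Psmb8, the inducible chymotrypsin-like subunit β5i, measured 9.61 and 10.48 in TCDD replicates 1 and 2 and 10.05 and 10.01 in the DMSO replicates. Its TCDD values lay on either side of both DMSO values, and the difference of 0.015 had 95% limits of −0.77 and 0.80. Psmb10, the inducible trypsin-like subunit β2i, measured 8.68 and 9.46 after TCDD and 9.25 and 9.05 after DMSO. Here too the TCDD arrays bracketed the DMSO arrays, and the difference was −0.08 (limits −0.81 and 0.65). Psmb9, the inducible subunit β1i, measured 8.66 and 9.20 after TCDD and 9.16 and 9.20 after DMSO. Only TCDD replicate 1 stood apart, and the difference of −0.25 had limits of −0.78 and 0.28.

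The labels number the arrays of each group 1 and 2. The 3 genes differed by −0.44, −0.57 and −0.50 for Psmb8, Psmb10 and Psmb9 between the arrays numbered 1, and by 0.47, 0.41 and 0 between those numbered 2. Their median difference of −0.08 became 0.31 without TCDD replicate 1 and −0.47 without TCDD replicate 2. The 2 TCDD arrays were a median of 0.78 apart over the 3 genes and the 2 DMSO arrays 0.04. Among the 7 measured of 8 listed CD8 T cell markers the mean level was also lowest in TCDD replicate 1, at 9.23, against 9.70 in TCDD replicate 2 and 9.71 and 9.86 in the DMSO arrays. Of these 7 markers 6 were lowest in TCDD replicate 1 (85.7%, against 32.3% of all genes). Only 3 were highest in TCDD replicate 2 (42.9%, against 37.9% of all genes). Cd8b1, chosen after its values were seen, measured 8.16 and 8.95 after TCDD and 8.67 and 8.58 after DMSO. Thy1, also chosen after its values were seen, measured 9.70 and 9.46 after TCDD and 10.34 and 10.22 after DMSO, lowest in TCDD replicate 2. The part of the CD8 marker level in the immunoproteasome values was not tested.

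None of the constitutive catalytic subunits passed limma. Psmb5, the constitutive chymotrypsin-like subunit β5, measured 7.94 and 8.79 after TCDD and 8.76 and 9.03 after DMSO. TCDD replicate 1 was low and the groups overlapped, with a difference of −0.53 (limits −1.33 and 0.27). Psmb7, the trypsin-like subunit β2, measured 6.78 and 6.76 after TCDD and 7.16 and 6.93 after DMSO. Both TCDD arrays were lower, by −0.275 on average (limits −0.60 and 0.05), and the limma fit did not call it. Psmb6, the caspase-like subunit β1, measured 9.39 and 9.53 after TCDD and 9.37 and 9.23 after DMSO. Both TCDD arrays were higher, TCDD replicate 1 by 0.02 over the nearest DMSO array, and the difference was 0.16 (limits −0.15 and 0.47).

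The exchange of catalytic subunits was followed only in RNA, and subunits in assembled particles were not measured. Since levels of different probe sets are not comparable, only changes were read. They are changes in the log2 difference between the immunoproteasome gene and the constitutive gene it replaces. For β5 the difference Psmb8 minus Psmb5, centred on its mean over the arrays, was 0.26 and 0.28 in the TCDD arrays and −0.12 and −0.43 in the DMSO arrays. It was higher in both TCDD arrays, by 0.545, with 0.38 within number 1 and 0.71 within number 2. Psmb8 itself differed by 0.015, so in the group means nearly all of this change came from Psmb5, at −0.53 with overlapping groups. This did not hold within the numbers. Psmb8 differed by −0.44 within number 1 and 0.47 within number 2, and Psmb5 by −0.82 and −0.24. For β1 the difference Psmb9 minus Psmb6 was −0.41 and −0.005 in the TCDD arrays and 0.12 and 0.30 in the DMSO arrays. It was lower in both TCDD arrays, by −0.41, with −0.52 within number 1 and −0.30 within number 2. Psmb9 itself differed by −0.25 and Psmb6 by 0.16. For β2 the difference Psmb10 minus Psmb7 was −0.30 and 0.50 in the TCDD arrays and −0.11 and −0.08 in the DMSO arrays, so the groups overlapped, and the change was 0.195, with −0.19 and 0.58 within the numbers. As arrays were left out the changes ran from 0.39 to 0.70 at β5, from −0.61 to −0.21 at β1 and from −0.205 to 0.595 at β2. With 2 arrays against 2 the smallest two-sided p of an exact permutation test is 0.33, so that test cannot reach a threshold of 0.05, and no other test was run on these changes.

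**Figure D2:**
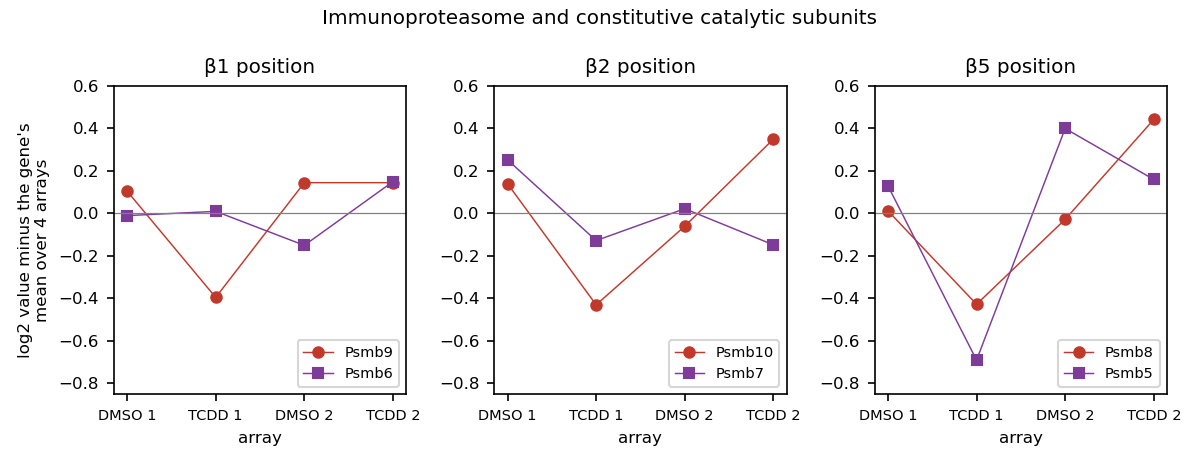
Log2 value of each catalytic subunit gene minus its mean over the 4 arrays (y axis) in each array (x axis), 1 panel per catalytic position, with lines joining the values of a gene. All 3 immunoproteasome genes are lowest in TCDD replicate 1, where Psmb5 is low as well and Psmb6 is not.

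Promoter windows show which letters lie upstream of these genes. RefSeq windows of GRCm38.p6, reaching from 250 bases before to 50 bases after a listed start, matched 36 of the 43 members with 39 windows. They were searched on both strands for GCGTG, the core that AHR binds, CCAAT, the NF-Y box, TGACNNNGC, the antioxidant response element core, and TTTCNNTTT, an interferon response element core. The AHR core lay in 48.7% of the member windows and in 32.4% of all 32851 windows, CCAAT in 38.5% and 37.4%, the antioxidant core in 15.4% and 12.4%, and the interferon core in 12.8% and 10.6%. The interferon core was chosen in this short form after a longer one had been searched. Member and other windows were not matched for base composition. The 3 immunoproteasome genes, Psmd6 with the highest difference and Psma4 with the lowest are shown 5′ to 3′ on the gene's strand, with matches in capitals. None of the matches in these 5 windows overlapped another.
Psmb9, chr17:34187281-34187580, minus strand: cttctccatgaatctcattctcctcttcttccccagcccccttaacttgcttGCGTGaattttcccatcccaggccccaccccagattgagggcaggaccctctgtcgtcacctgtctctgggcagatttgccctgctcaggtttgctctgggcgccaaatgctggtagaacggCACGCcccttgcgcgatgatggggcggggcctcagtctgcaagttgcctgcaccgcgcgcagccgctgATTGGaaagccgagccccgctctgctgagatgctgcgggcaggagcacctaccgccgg
Psmb10, chr8:105938343-105938642, minus strand: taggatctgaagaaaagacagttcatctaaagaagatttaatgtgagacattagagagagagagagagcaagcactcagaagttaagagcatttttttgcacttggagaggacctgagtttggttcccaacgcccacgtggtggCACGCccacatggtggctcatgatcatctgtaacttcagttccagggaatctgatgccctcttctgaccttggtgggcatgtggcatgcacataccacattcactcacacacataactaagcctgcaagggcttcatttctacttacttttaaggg
Psmb8, chr17:34197945-34198244, plus strand: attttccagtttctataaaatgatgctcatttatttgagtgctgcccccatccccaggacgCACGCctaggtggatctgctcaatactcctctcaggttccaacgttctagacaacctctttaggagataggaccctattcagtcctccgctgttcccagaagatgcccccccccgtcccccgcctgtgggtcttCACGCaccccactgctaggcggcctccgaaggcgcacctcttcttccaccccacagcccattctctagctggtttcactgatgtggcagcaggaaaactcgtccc
Psmd6, chr14:14120896-14121195, minus strand: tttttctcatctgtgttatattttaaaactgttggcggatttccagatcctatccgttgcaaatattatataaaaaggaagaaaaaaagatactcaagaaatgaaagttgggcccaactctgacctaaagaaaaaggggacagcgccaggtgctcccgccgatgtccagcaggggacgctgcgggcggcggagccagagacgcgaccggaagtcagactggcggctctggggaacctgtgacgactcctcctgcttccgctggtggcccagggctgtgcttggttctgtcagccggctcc
Psma4, chr9:54950609-54950908, plus strand: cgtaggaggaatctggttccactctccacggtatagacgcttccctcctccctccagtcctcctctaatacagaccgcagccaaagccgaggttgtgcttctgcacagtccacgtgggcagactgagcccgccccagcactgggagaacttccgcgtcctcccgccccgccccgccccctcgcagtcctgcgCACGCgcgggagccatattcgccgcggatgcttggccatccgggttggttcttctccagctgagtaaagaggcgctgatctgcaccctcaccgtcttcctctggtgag
The windows of Psmb9, Psmb10 and Psmb8 held 2, 1 and 2 matches to the AHR core, and Psmb9 held 1 CCAAT match. Each of these windows held 0 matches to the interferon core and 0 to the antioxidant core. That of Psma4 held 1 match to the AHR core, and that of Psmd6 held 0 matches to any of the motifs. A match is a run of letters and not a measured binding site.

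The alpha ring forms the outer rings and the gate of the core particle. Over its 7 members the median difference was −0.29, beside 0.01 for all genes, with 5 negative and 2 positive. Both TCDD arrays were lower for 3 and higher for 1, where 12% and 12.9% of all genes were. Psma4 measured 6.95 and 7.17 after TCDD and 7.40 and 8.34 after DMSO. The TCDD arrays were the lower pair, DMSO replicate 2 was the highest array, and the difference of −0.81 had limits of −1.67 and 0.05. The unadjusted limma p was 0.0597 and the adjusted p 0.997. Psma3 and Psma1, chosen after their values were seen, had the same high array. Psma3 measured 10.36 and 10.12 after TCDD and 10.45 and 11.35 after DMSO, a difference of −0.66. Psma1 measured 7.41 and 7.14 after TCDD and 7.37 and 8.15 after DMSO, a difference of −0.485 with overlapping groups.

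These differences lay mostly between the arrays numbered 2. Between those numbered 1, Psma4, Psma3 and Psma1 differed by −0.45, −0.09 and 0.04, and between those numbered 2 by −1.17, −1.23 and −1.01. The alpha ring median was −0.095 without DMSO replicate 2, −0.065 without TCDD replicate 1 and −0.178 with the mean of each gene's probe sets. Of the 7 genes 5 had their highest value in DMSO replicate 2 (71.4%, against 24.4% of all genes). That array had high neutrophil markers, S100a8 and S100a9 above all, and low values of the MHC class II genes and Irf8. The part of those markers in the alpha ring values was not tested. In these samples fewer cells of a type and less RNA per cell cannot be told apart.

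The remaining alpha subunits were less alike. Psma7 differed by −0.29 and Psma2 by −0.085, and Psma5 by 0.12. Psma6 measured 10.43 and 10.63 after TCDD and 10.41 and 10.13 after DMSO, a difference of 0.26 with the lowest value in DMSO replicate 2. Its other probe set with a mean above 6.01 had the opposite sign, at 8.31 and 8.60 after TCDD and 8.73 and 9.13 after DMSO, a difference of −0.475. Psma8, which encodes an alpha subunit of the testis and lay below the median level, measured 4.87 and 4.68 after TCDD and 4.78 and 5.0 after DMSO.

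The structural beta subunits, which complete the inner rings without cutting peptide bonds, had overlapping groups throughout, as had 9307 of all 12393 genes. All 4 had their highest value in TCDD replicate 2, against 37.9% of all genes. Their lowest was in TCDD replicate 1 for 3 (75%, against 32.3% of all genes). Psmb2 measured 8.47 and 9.06 after TCDD and 8.54 and 8.15 after DMSO. Its difference of 0.42 had limits of −0.23 and 1.07, and came from TCDD replicate 2 and DMSO replicate 2. Psmb4 measured 9.72 and 10.35 after TCDD and 10.05 and 10.17 after DMSO, a difference of −0.075 with the TCDD arrays on either side of the DMSO arrays. Psmb3, chosen after its values were seen, measured 10.24 and 11.23 after TCDD and 10.44 and 10.59 after DMSO, a difference of 0.22. Psmb1 differed by −0.035. The class median of 0.0925 became 0.4775 without TCDD replicate 1 and −0.2175 without TCDD replicate 2.

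**Figure D3:**
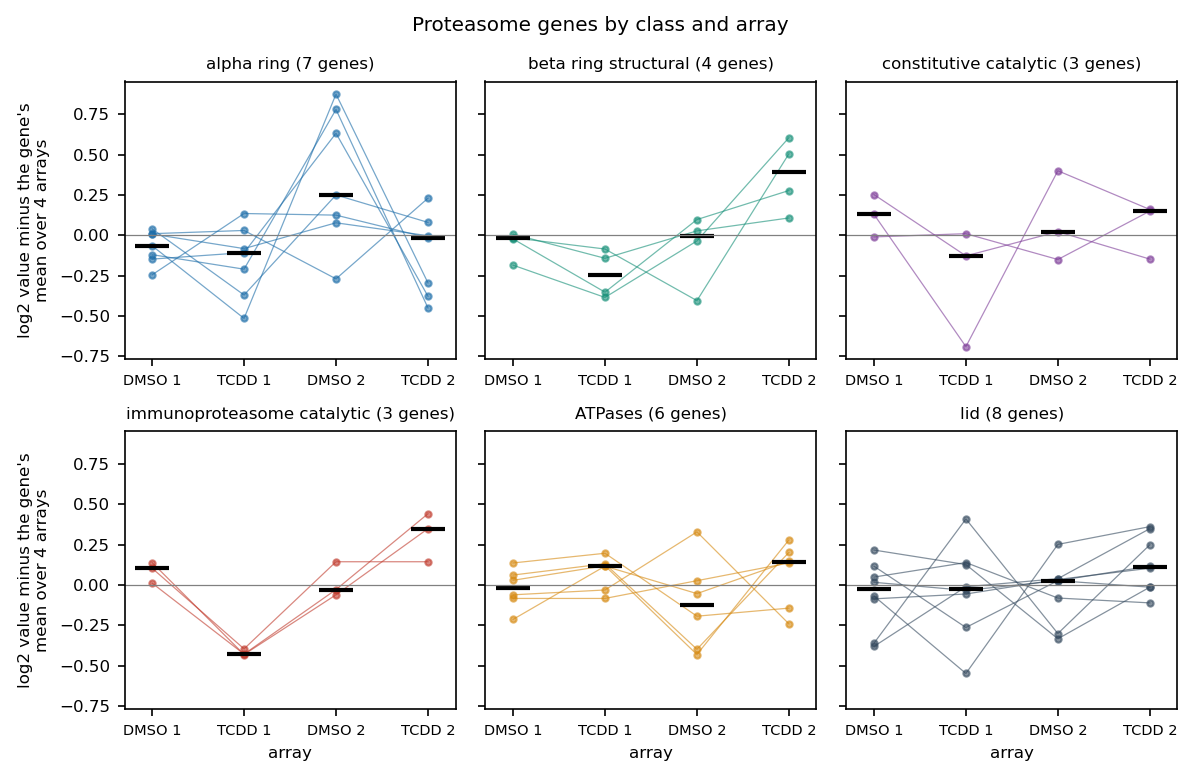
Log2 value of each gene minus its mean over the 4 arrays (y axis) by array (x axis) for 6 subunit classes, with a line per gene and a black bar at the class median. The immunoproteasome genes dip together in TCDD replicate 1, 5 of the 7 alpha ring genes peak in DMSO replicate 2, and the ATPases sit lower in DMSO replicate 2 for 3 of 6 genes.

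Of the 6 ATPase genes of the base 5 had a positive difference, 3 were higher in both TCDD arrays and 0 were lower in both, with a class median of 0.16. Of all genes 12.9% were higher in both TCDD arrays and 12% lower. Psmc2 measured 11.05 and 11.21 after TCDD and 10.96 and 10.50 after DMSO, a difference of 0.40 (limits −0.09 and 0.89). Psmc3, chosen after its values were seen, measured 8.64 and 8.71 after TCDD and 8.57 and 8.11 after DMSO, a difference of 0.335. In both genes DMSO replicate 2 was the low array, and the arrays numbered 1 differed by 0.09 and 0.07. Psmc4, also chosen after its values were seen, measured 8.33 and 8.36 after TCDD and 8.00 and 8.16 after DMSO, a difference of 0.265. It was higher within both numbers, by 0.33 and 0.20. Psmc5 measured 6.68 and 6.47 after TCDD and 6.65 and 7.04 after DMSO, a difference of −0.27 with overlapping groups. Psmc1 and Psmc6 each differed by 0.055. None of the 6 passed limma, and their lowest unadjusted p was 0.0678, for Psmc4.

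The other base subunits include Psmd1 and Psmd2, large scaffolds of the base, and Psmd4, a ubiquitin receptor. Psmd1 measured 6.86 and 7.16 after TCDD and 7.12 and 7.75 after DMSO, with the highest value in DMSO replicate 2 and a difference of −0.425. Psmd4 measured 9.0 and 9.53 after TCDD and 9.18 and 9.04 after DMSO, and its difference of 0.155 rested on TCDD replicate 2. Psmd2 differed by −0.135. The groups overlapped for all 3, as for 9307 of all 12393 genes.

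In the lid, Psmd6 had the highest difference of all 43 genes. It encodes Rpn7, a scaffold subunit of the lid, and measured 9.01 and 8.85 after TCDD and 8.24 and 8.30 after DMSO. The TCDD arrays were the higher pair, and the gap between the groups was wider than that between the arrays of either group. The group means were 8.93 ± 0.11 (SD, n = 2) and 8.27 ± 0.042 (n = 2). The difference of 0.66, or 1.58-fold, had limits of 0.36 and 0.96, with an unadjusted limma p of 0.00255 and an adjusted p of 0.997. It was 0.77 within number 1 and 0.55 within number 2, and between 0.58 and 0.74 with any 1 array left out. Its other probe set gave less, with 7.84 and 7.43 after TCDD against 7.63 and 7.32 after DMSO. That probe set had overlapping groups and a difference of 0.16.

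Psmd7, the structural partner of the lid's deubiquitinase, differed by 0.34 with overlapping groups, and by −0.045 in another probe set above the median level. Psmd14, the deubiquitinase itself, differed by 0.03, and Psmd11, Psmd3, Psmd12 and Psmd8 by 0.05, 0.115, −0.045 and −0.145. Psmd13 measured 7.35 and 8.26 after TCDD and 7.83 and 8.15 after DMSO, a difference of −0.185 with the TCDD arrays on either side. Over the 8 lid genes the median was 0.04, with 1 higher and 1 lower in both TCDD arrays, or 12.5% each, near the 12.9% and 12% of all genes. Besides Psmd6 the gene with separate groups was Psmd12, where all 4 values lay between 7.61 and 7.67.

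Set side by side, the median differences were −0.29 for the alpha ring, 0.0925 for the structural beta subunits, −0.275 for the constitutive catalytic subunits, −0.08 for the immunoproteasome catalytic subunits, 0.16 for the ATPases and 0.04 for the lid. The alpha ring, structural beta and constitutive catalytic genes together make the constitutive core. Over its 14 genes the median was −0.08, equal to that of the immunoproteasome subunits, though their medians within the numbers were unlike. Of these 14, 2 were higher (14.3%) and 4 lower (28.6%) in both TCDD arrays, where 12.9% and 12% of all genes were. Differences between classes were not tested. Within the numbers the constitutive core was at −0.12 and −0.11, and the immunoproteasome subunits were at −0.50 and 0.41. The alpha ring was at −0.09 and −0.17, the constitutive catalytic subunits at −0.38 and −0.17 and the ATPases at 0.065 and 0.155. The structural beta subunits were at −0.175 and 0.41. Over all genes the corresponding medians were −0.03 and 0.05.

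The activators and chaperones had differences between −0.25 and 0.075. Psme1, an interferon-inducible subunit of the activator that opens the core particle, measured 10.07 and 10.15 after TCDD and 10.19 and 10.35 after DMSO. Both TCDD arrays were lower, and the difference of −0.16 had limits of −0.46 and 0.14. Psme3, which encodes the nuclear homologue, differed by −0.14. Psme4, an activator of another family, measured 7.99 and 7.52 after TCDD and 7.53 and 7.83 after DMSO, so its direction changed between the numbers. Among the chaperones of base assembly, Psmd9 measured 6.49 and 6.67 after TCDD and 6.43 and 6.60 after DMSO, and Psmd5 differed by 0.035. Psmd10, which was below the median level, measured 5.08 and 5.21 after TCDD and 5.23 and 5.56 after DMSO, a difference of −0.25. The partner protein genes Psmc3ip and Psme3ip1 differed by −0.005 and −0.08.

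Probe sets of 1 gene did not always give the same sign. Of the 43 genes 19 had more than 1 probe set of their own, and 14 had another one above the median level. For 6 of these 14, Psma6, Psmb3, Psmb4, Psmc4, Psmd4 and Psmd7, at least 1 such probe set had a difference of the opposite sign. Among these 6 the widest gaps were in Psma6, from 0.26 to −0.475, and Psmb3, from 0.22 to −0.255. Psmd6 had differences of 1 sign that lay further apart than those of Psmb3, from 0.66 to 0.16. In Psmc4 the other probe set differed by −0.035, and in Psmc2 by 0.13, against the 0.40 given above.

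**Figure D4:**
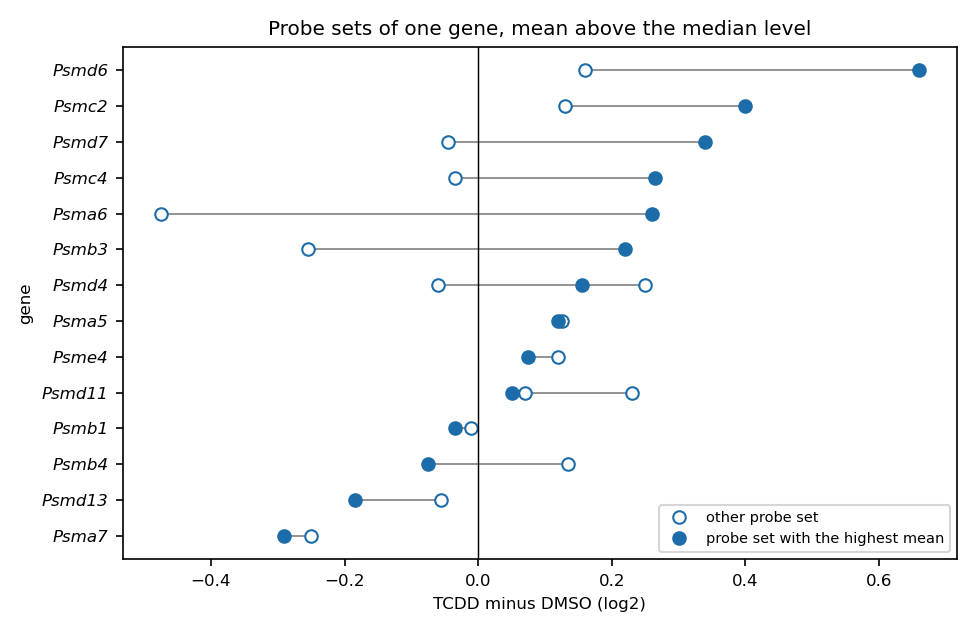
Difference between TCDD and DMSO (x axis, log2) for all probe sets above the median level of the 14 genes that have several, with filled points for the probe set with the highest mean and open points for the others. In 6 genes the points lie on both sides of 0, furthest apart in Psma6.

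Genes that work with the proteasome were read from lists outside the naming rule. Of 18 listed assembly and associated factors 15 were measured, of which 1 was higher (6.67%) and 2 lower (13.3%) in both TCDD arrays, where 12.9% and 12% of all genes were, with a median difference of 0.005. Sem1, a small lid subunit outside the naming rule chosen after its values were seen, was the higher one, at 10.66 and 10.73 against 10.43 and 10.50. The highest difference was that of Txnl1, a thioredoxin-like protein bound to the regulatory particle, at 10.59 and 9.78 after TCDD and 9.79 and 8.93 after DMSO. Its difference of 0.825, with overlapping groups, was 0.80 within number 1 and 0.85 within number 2. With the mean of its probe sets it was 0.116. As arrays were left out it ran from 0.395 without DMSO replicate 2 to 1.255 without DMSO replicate 1. The lowest was that of Uchl5, a deubiquitinase of the base, at 5.40 and 5.51 against 5.64 and 5.95. Of 14 listed ubiquitin and shuttle genes 7 were measured, with a median of −0.065, from Nploc4, a cofactor of the p97 segregase, at 0.255 down to the shuttle factor gene Ubqln2 at −0.665. Ubqln2 measured 6.67 and 5.82 after TCDD and 6.63 and 7.19 after DMSO, and its difference was −0.177 with the mean of its probe sets, and between −1.09 without TCDD replicate 1 and −0.24 without TCDD replicate 2 as arrays were left out. Limma called 0 of these 22 genes, and 0 had an unadjusted p under 0.05.

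Class I antigen processing genes, which use the peptides that the proteasome makes, had a negative median. Of 10 listed genes 8 were measured, with a median difference of −0.2575, 5 lower and 0 higher in both TCDD arrays, where 12% of all genes were lower and 12.9% higher. Their highest value was in DMSO replicate 2 for 5 of the 8 (62.5%, against 24.4% of all genes), the array with high neutrophil markers. The 7 measured CD8 T cell markers had a median difference of −0.265, with 3 lower (42.9%) and 0 higher in both TCDD arrays. Of these 7 markers 2 were lower at an unadjusted limma p under 0.05, where 1.28% of all genes were. They were Thy1 at −0.70 (p 0.00374) and Cd8a at −0.73 (p 0.0481), each with an adjusted p of 0.997. The part of either marker list in the class I values was not tested. B2m, the class I light chain, measured 11.19 and 11.48 after TCDD and 11.74 and 12.42 after DMSO, a difference of −0.745 that was −0.405 without DMSO replicate 2. Its unadjusted limma p was 0.0373 and its adjusted p 0.997. The heavy chain gene H2-K1 measured 11.83 and 11.79 against 12.03 and 12.22, a difference of −0.315. Its unadjusted limma p was 0.0463 and its adjusted p 0.997, and all of its own probe sets are marked for cross hybridisation. The peptide transporter gene Tap2 had the highest difference, 0.075. Its partner Tap1 measured 9.29 and 9.67 after TCDD and 9.40 and 9.42 after DMSO, lowest in TCDD replicate 1 and highest in TCDD replicate 2 as Psmb8 and Psmb10 were. Tap1 was chosen after its values were seen. It was the only 1 of the 8 highest in TCDD replicate 2 (12.5%, against 37.9% of all genes). In TCDD replicate 1, 4 of the 8 were lowest (50%, against 32.3% of all genes).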

How the data were processed

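The deposited values are log2 expression, 1 per array for each probe set, which the authors made with RMA per the submitters' processing notes (version not given in the sources used here). RMA corrects background, normalises between arrays and combines a probe set's probes, and it compresses differences near the low end, so low values have no true zero. Of 22690 probe sets 64 controls were left out, and 22626 were tested. Genes were named from the platform annotation. In all, 20380 probe sets had 1 symbol, 691 several and 1555 were unnamed here. None of the 43 members' symbols differed from the RefSeq table. Differences are TCDD minus DMSO, tested with lmFit and eBayes of limma 3.58.1 (R 4.3.3), without covariates or filters. All p-values were adjusted by Benjamini-Hochberg over the whole table, with a threshold of 0.05. The limma step was run on simulated data with independent arrays, to check that its mean estimates matched the changes put in. No power is taken from that check. The number of arrays limits the precision.

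Values are given for the catalytic subunits, Psme1, the highest and lowest member of each class, every member with an unadjusted p under 0.05, and the highest and lowest gene of each related list. The members and lists were chosen with earlier results of these data known. The alternatives were median centring, array weights, filters on the mean level (25th percentile, or median), a repeat of the quantile normalisation, robust fitting with a variance trend, removal of probe sets marked for cross hybridisation, gene means, a replicate block, and each array left out.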

Additional observations from a re-analysis of the deposited data

How the results depend on the processing

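Limma called 0 probe sets and 0 proteasome genes in every alternative run. Fitted with the replicate block it again called 0 of either, with 4 proteasome genes at an unadjusted p under 0.05 against 1 without the block. Over all 22626 probe sets that count also rose, to 612 with the block from 439 without it. The numbers are not stated to pair the arrays, and the deviations of same-numbered arrays correlated at 0.234 over all probe sets. Without probe sets marked for cross hybridisation the alpha ring median moved to −0.475 and Psma6 turned to −0.475, since another probe set then stands for that gene, and the ATPase median moved to 0.0925. With gene means the ATPase median moved to 0.101 and Psmb4 turned to 0.03. As arrays were left out, class medians ran from −0.395 to −0.065 (alpha ring), −0.2175 to 0.4775 (structural beta), −0.39 to −0.105 (constitutive catalytic), −0.47 to 0.31 (immunoproteasome), 0.1075 to 0.2375 (ATPases), −0.245 to 0.02 (other base subunits), −0.03 to 0.0875 (lid), −0.13 to 0.155 (chaperones) and −0.24 to 0 (activators). Named genes that turned ran from −0.42 to 0.45 (Psmb8), −0.52 to 0.02 (Psmb9), −0.47 to 0.31 (Psmb10), −0.39 to 0.24 (Psmb4), −0.11 to 0.42 (Psmd4), −0.64 to 0.27 (Psmd13), −0.025 to 0.155 (Psmd9), −0.16 to 0.31 (Psme4) and −0.07 to 0.22 (Tap2). With an array left out, the lone array of its group is assumed to vary like the other group.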
